A study of Mus musculus with 44 samples.

Results

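The 6 genes described here act in blood clotting and were followed in liver through lists of N6-methyladenosine (m6A) peaks, namely Fga and Fgb of fibrinogen, the clotting factor genes F9 and F10, the antithrombin gene Serpinc1 and the kininogen gene Kng1. They were chosen by name, with earlier results of these data known. A peak belonged to a gene when it carried the Ensembl identifier of that gene or when its span lay inside the RefSeq span of the gene, on the mouse build mm10. In all, 84 of the 17573 peaks in 8 lists met this rule, and the genes were 6 of 1419 gene loci that had a peak in at least 1 list.

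The livers came from male mice of the inbred strain C57Bl/6J, and all of them ate a high-fat diet with 42% of energy from fat. The animals had received Aroclor1260, PCB126, both together or vehicle as a control, by mouth and once, at week 2 of a study of 12 weeks. Aroclor1260 was sold as a mix of heavily chlorinated biphenyls, while PCB126 is a single dioxin-like biphenyl that activates the aryl hydrocarbon receptor. No dose is stated in the sources used here. For each treatment there were 5 m6A immunoprecipitates, 5 input libraries and 1 library from a precipitation of pooled RNA with control IgG. Each treatment had a single list with input as reference and another with IgG, without values per mouse, so a value belongs to a treatment and has no replicate error. No difference between lists could therefore be set against the spread between mice, and no p-value across animals is given. The number of reads behind a list is unknown. In whole liver, fewer cells of a type and less RNA per cell cannot be told apart.

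Clotting is a cascade in which inactive enzymes made by hepatocytes are cut in turn until thrombin converts soluble fibrinogen into fibrin. Fibrinogen is built from pairs of an alpha, a beta and a gamma chain, encoded by Fga, Fgb and Fgg in a single gene cluster. Factors IX and X are serine proteases that need vitamin K to mature, antithrombin blocks thrombin and factor Xa, and kininogen carries bradykinin and takes part in contact activation. In messenger RNA, m6A is set by a METTL3-METTL14 complex, read by YTH proteins, and known to gather in long internal exons and near stop codons.

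List lengths differed widely. Against input the lists held 506 peaks after Aroclor1260, 2178 after PCB126, 2284 after the combination and 620 in the control. With IgG as reference the numbers were 2082, 4129, 3683 and 2091 in the same order, which is kept throughout. Of the 27025 genes with 1 recorded strand in the RefSeq promoter table, 49.8% lie on the minus strand, against 2.71% of the 1033 loci with a peak and such a strand, so the absence of a minus-strand gene from a list says little about its methylation. Among 12 hepatocyte markers, 1, 2, 5 and 3 had a peak against input and 4, 5, 4 and 4 against IgG. The shares of all loci with a peak follow in the next paragraph. Apoa1 was in all 8 lists, and Alb was in none. Markers of endothelial cells, macrophages, stellate cells and cholangiocytes had at most 1 member each in any list, and the 6 lymphocyte and 6 platelet markers had 0 in all 8.

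Fga, F10, Serpinc1 and Kng1 had a peak against input after Aroclor1260 and in the control. PCB126 added Fgb, and the combination added Fgb and F9, so that 4, 5, 6 and 4 of the 6 genes had a peak, where 16.1%, 48.5%, 50.6% and 18.0% of all loci did. Against IgG the numbers were 4, 4, 5 and 4 of 6, and 42.4%, 77.4%, 70.0% and 42.1% of all loci. The 6 genes were chosen with earlier results of these data known, and each had a peak in at least 1 list. Of 45 clotting genes looked at, these 6 included, 13 had one. The counts of the 6 may be shaped by that choice, so no excess of peaks at clotting genes is read from them. The genes held 8, 13, 17 and 8 peaks against input, and 8, 9, 14 and 7 against IgG. Of the 6, only Fga, F10 and Kng1 had a peak in each of the 8 lists, as did 141 loci in all, these 3 included.

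A gene counted as gained if it lacked a control peak and had one after exposure, with the same reference, and as lost in the opposite case. Against input, Aroclor1260 gave 0 gained genes of the 6, PCB126 gave 1 and the combination gave 2, where 4.58%, 31.8% and 33.8% of all loci were gained. None of the 6 was lost in any of these comparisons, where 6.41%, 1.27% and 1.2% of loci were. That changed with lists of equal length. When each list was cut to its 506 peaks with the lowest p-values, F10 and Serpinc1 were lost after PCB126, where 9.23% of loci were lost. F10, Kng1 and Serpinc1 were then lost after the combination, where 10.4% of loci were. Peaks of a gene often share a p-value, so this cut moves whole genes and is no test of list length alone. With IgG as reference, 1, 1 and 2 genes were gained, against 12.8%, 40.1% and 33.3% of loci. Serpinc1 counted as lost there in all 3 exposures, where 12.5%, 4.79% and 5.29% of loci were lost, and this rested on 1 control peak of another identifier described with that gene. With both references required, Fgb was gained after PCB126 (15.1% of loci), and Fgb and F9 after the combination (14.2% of loci). After Aroclor1260, 0 of the 6 were gained with both (0.987% of loci). None of the 6 was lost with both references after Aroclor1260 (1.76% of loci), PCB126 (0.141%) or the combination (0.211%). These counts rest on at most 3 genes, so nothing particular to clotting genes is read from them. The 3 exposures share 1 control list per reference.

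**Figure D1:**
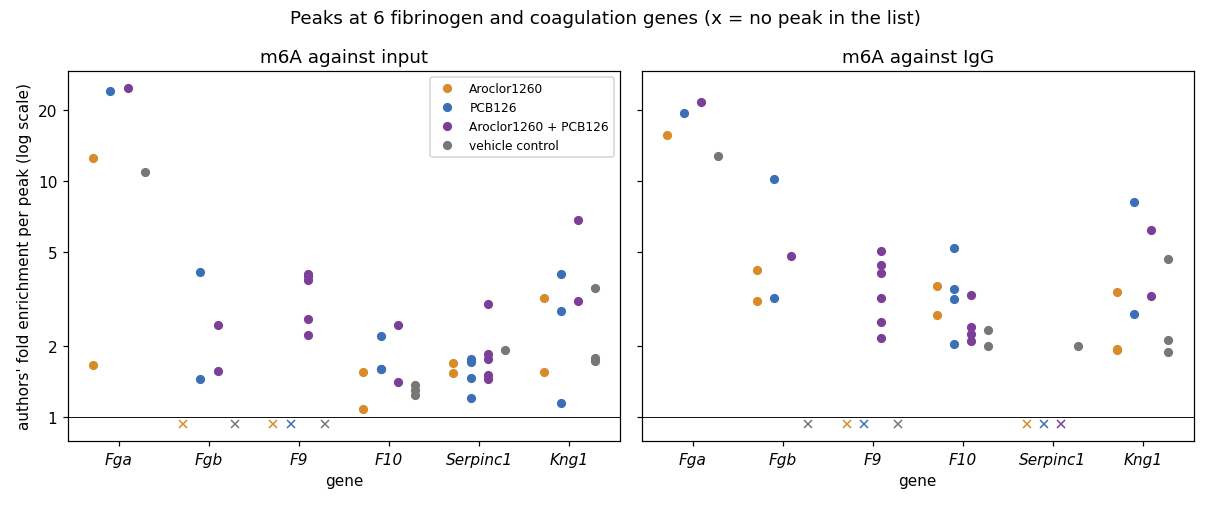
Fold enrichment of every peak at the 6 genes on a log axis, with m6A set against input on the left and against IgG on the right. Each point is 1 peak of 1 treatment's list and a cross marks a gene without a peak. Fga stands above the other genes in all 8 lists, F9 has points after the combination only, and Serpinc1 has 1 point against IgG.

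Fga, the gene of the fibrinogen alpha chain, carried the strongest peak of the 6 genes in each list. The fold enrichment, which is the authors' ratio of m6A immunoprecipitate over reference for a single peak, was 12.6 after Aroclor1260, 24.2 after PCB126, 25.0 after the combination and 11 in the control against input. Set against IgG it was 15.7, 19.6, 21.8 and 12.8. With both references the values after PCB126 and the combination were thus the higher ones and the control value was the lowest. Within its own list, the gene ranked 11th of 229 loci after Aroclor1260, 15th of 688 after PCB126, 9th of 718 after the combination and 18th of 255 in the control by strongest peak against input. In the IgG lists the ranks were 27 of 601, 86 of 1098, 41 of 994 and 45 of 597. It exceeded between 92.25% and 98.88% of the other loci of its list. A rank in lists of different length shows no change.

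The place of the Fga peak was nearly the same in all lists. The gene (ENSMUSG00000028001) spans chromosome 3 from 83026153 to 83033627 on the plus strand. After the combination, 1 peak covered it against input in 5 exonic blocks from 83026224 to 83032253, of 45, 129, 184, 146 and 1421 bp. After PCB126 the same blocks were found, with 1322 bp in the long one. Aroclor1260 gave 2 peaks, a weak one with a fold of 1.66 from 83029155 to 83030222 and the strong one from 83030320 to 83032154. In the control, 3 blocks of 111, 146 and 1421 bp reached from 83029155 to 83032253. The 2 blocks nearest to the start of the gene were thus within peaks after PCB126 and the combination and not after Aroclor1260 or in the control. Against IgG they were within a peak in all 4 treatments, so that contrast depended on the reference. Of the 1925 exonic bases that any list covered, 1285 (66.8%) were within a peak in all 8, among them 1125 consecutive bases from 83030833 to 83031957.

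**Figure D2:**
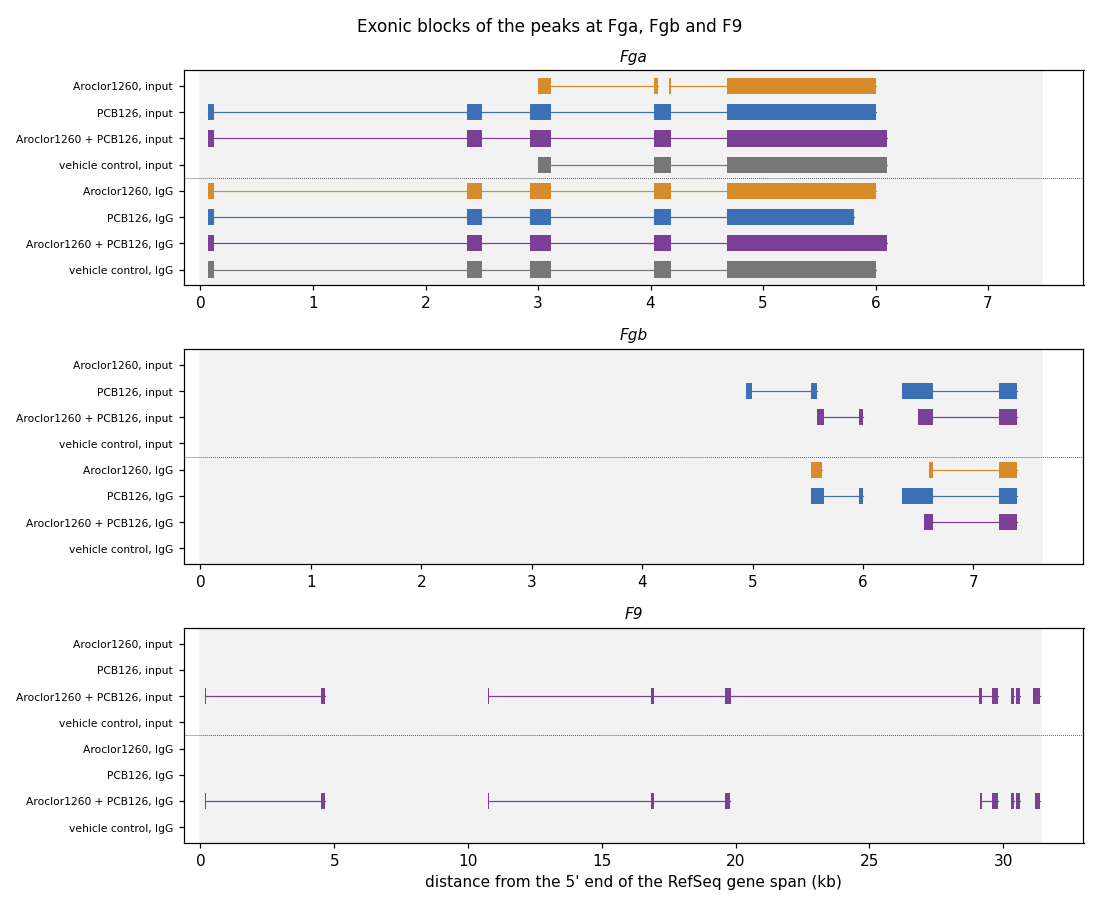
Exonic blocks (bars) and spans (thin lines) of the peaks at Fga, Fgb and F9 in the 8 lists, by distance in kb from the 5′ end of the RefSeq gene span, which is shaded. The long block of Fga recurs in every list, the Fgb blocks lie in the 3′ part of the gene, and the F9 blocks of the combination fall on nearly the same places with both references.

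Fgb, the gene of the beta chain, had no control peak with either reference. The gene (ENSMUSG00000033831) lies 8618 bp beyond Fga, on chromosome 3 from 83042246 to 83049863, and is read from the minus strand, as were all its peaks. It was the only one of the 6 genes on that strand. Only 2.71% of loci with a peak and a recorded strand lay there, so lists without Fgb say little about its methylation. Against input it had 0 peaks after Aroclor1260, 2 after PCB126 with folds of 4.10 and 1.44, 2 after the combination with folds of 2.46 and 1.57, and 0 in the control. The IgG lists held 2 peaks after Aroclor1260 with folds of 4.2 and 3.10, 2 after PCB126 with 10.2 and 3.20, 1 after the combination with 4.80, and 0 in the control. Every exposure thus had a peak with at least 1 reference, and PCB126 and the combination had one with both. The strongest peak after PCB126 ran from 83042466 to 83043508 with both references, in blocks of 169 and 277 bp. Its 169 bp block, from 83042466 to 83042634, was covered in all 5 lists in which the gene had a peak. On a scale from 0 at the 5′ end of the gene to 1 at the 3′ end, this PCB126 peak was centred at 0.893. By strongest peak, Fgb exceeded 45.0% of the other loci after PCB126 and 17.9% after the combination against input. In the IgG lists, it exceeded 52.8%, 78.9% and 42.8% in the 3 exposures. Loci with a peak in exactly these 5 lists numbered 33 besides Fgb.

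The gene of the gamma chain, Fgg, ends 11096 bp before Fga and was no member of the group. It had no peak against input in any treatment. Against IgG its strongest folds were 2.07 after PCB126, 2.57 after the combination and 2.02 in the control, and it had no peak after Aroclor1260. A second control peak at that place carried an identifier of the opposite strand. The 3 chains of one protein thus differed in these lists, with Fga in all 8, Fgb, on the sparsely listed minus strand, in 5 and Fgg in 3.

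F9, which encodes clotting factor IX, had peaks after the combination and in no other treatment. The gene (ENSMUSG00000031138) lies on chromosome X from 59999329 to 60030760, on the plus strand. Against input the combination list held 5 peaks with folds from 2.22 to 4.04, and against IgG 6 peaks with folds from 2.15 to 5.05. Aroclor1260, PCB126 and the control had 0 peaks each with either reference. The strongest peak differed with the reference. Against input it was a 150 bp peak close to the 3′ end, from 60029815 to 60029964, and against IgG it was the first peak of the gene, from 59999514 to 60003997, which had a fold of 3.96 against input. The bases covered agreed closely, since 1296 of the 1444 covered against input were also covered against IgG, in 10 stretches along the gene. The authors' log10 of the false discovery rate ran from -6.59 to -2.30 against input, so the later peaks of the gene were among those called with less certainty, and against IgG it reached -1.39. None of the 5 peaks was among the 506 of the combination list with the lowest p-values, and with lists of that equal length F9 was no longer gained. Besides F9, 40 other loci had a peak in these 2 lists alone.

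F10, which encodes factor X, where the intrinsic and extrinsic branches of the cascade meet, had peaks in every list, which were weak against input. The gene (ENSMUSG00000031444) spans chromosome 8 from 13037308 to 13056676 on the plus strand. Its strongest fold against input was 1.55 after Aroclor1260, 2.20 after PCB126, 2.44 after the combination and 1.36 in the control. Against IgG it was 3.60, 5.22, 3.30 and 2.34. The control had the lowest value with both references, and the order of the exposures was not the same. In the input lists F10 exceeded 12.3%, 12.2%, 17.4% and 3.94% of the other loci by strongest peak, so it was among the least enriched genes there. In the IgG lists it exceeded 42.5%, 43.3%, 21.85% and 17.79%. Peaks numbered 2, 3, 2 and 3 against input, and 2, 4, 4 and 2 against IgG. After the combination the peaks against input were 1 long peak of 8 blocks from 13037843 to 13055584 and a short one behind it. Exonic bases covered were 449, 1344, 1292 and 649 against input, with all 649 control bases also covered after the combination and 599 of them after PCB126. Set against IgG, the numbers were 945, 1345, 1097 and 1292, so there the control lay within the range of the exposures. In all 8 lists, 252 bases were covered, of which 143 lay together from 13055293 to 13055435, near the 3′ end of the gene span.

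**Figure D3:**
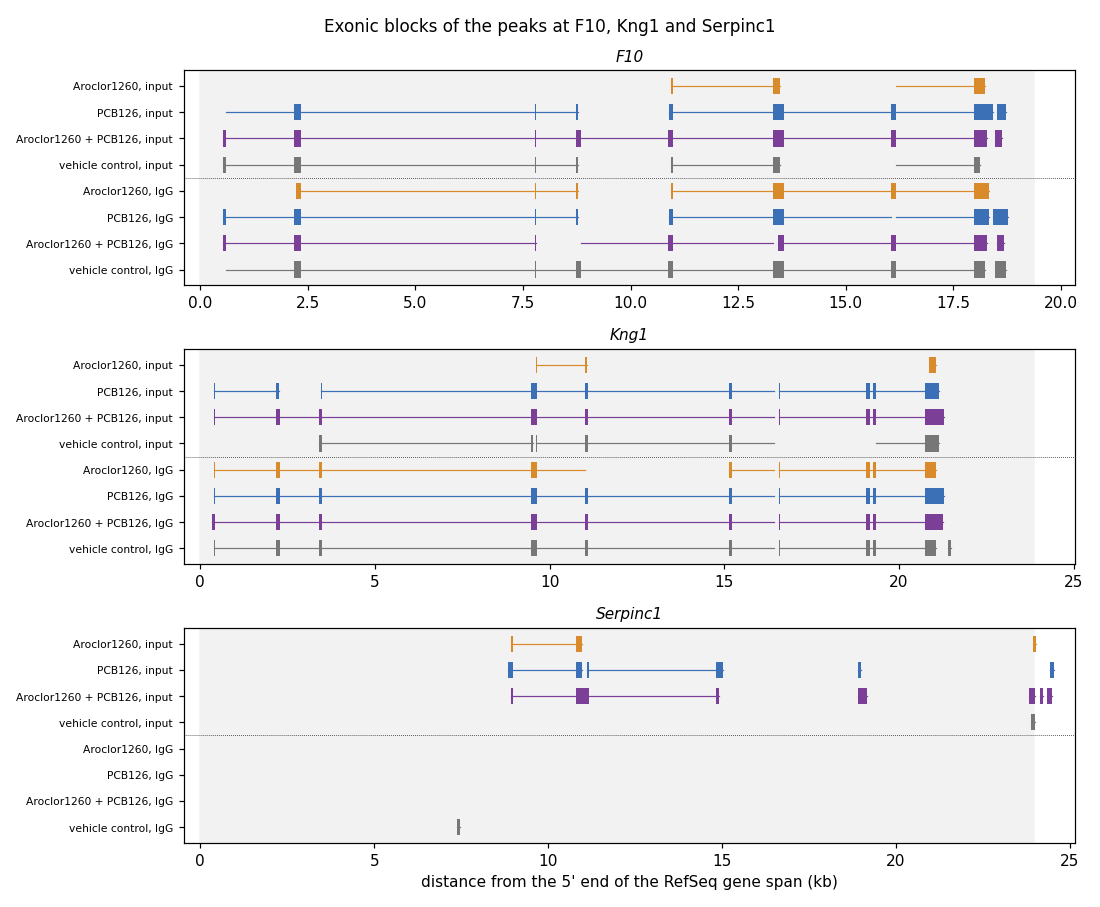
Exonic blocks (bars) and spans (thin lines) of the peaks at F10, Kng1 and Serpinc1 in the 8 lists, by distance in kb from the 5′ end of the RefSeq gene span, which is shaded. F10 and Kng1 have blocks over most of the gene in several lists and a block near the 3′ end in all 8. The Serpinc1 blocks against input reach past the end of the shaded span, and against IgG there is 1 control block of another identifier.

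Kng1, which encodes kininogen, had peaks in every list. Its strongest fold against input was second to that of Fga among the 6 genes, except after PCB126, where Fgb had 4.10 and Kng1 4.02. The gene (ENSMUSG00000022875) lies on chromosome 16 from 23058220 to 23082078, and its peaks were on the plus strand. The strongest fold was 3.18 after Aroclor1260, 4.02 after PCB126, 6.88 after the combination and 3.53 in the control against input. With IgG as reference it was 3.40, 8.20, 6.20 and 4.66. PCB126 and the combination thus had higher folds than the control, and Aroclor1260 a lower one, with both references. Within its list, Kng1 exceeded 52.19%, 43.96%, 78.38% and 46.06% of the other loci by strongest peak against input. In the IgG lists it exceeded 39.17%, 70.01%, 59.42% and 51.51%. By this standing, PCB126 lay below the control and Aroclor1260 above it against input, while against IgG the order was that of the folds. The strongest peak lay toward the 3′ end in all 8 lists, centred between 0.846 and 0.878 of the gene. Against input it ran in 4 blocks from 23074799 to 23079521 after the combination, and in 1 block of 200 bp from 23079072 to 23079271 after Aroclor1260. With IgG as reference the Aroclor1260 peak had 4 blocks, from 23074799 to 23079271. Those 200 bases were within a peak in all 8 lists. Exonic bases covered were 301, 1102, 1351 and 752 against input and 1002, 1351, 1351 and 1202 against IgG. All 301 bases covered after Aroclor1260 against input were covered in the control too. The paralog Kng2, which lies 29118 bp before Kng1 on the minus strand, had no peak in any list. Reads that match both copies could be counted at either, so the values of Kng1 are uncertain to that extent.

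Serpinc1, the gene of antithrombin, stood apart from the other genes by its reference. Under its own identifier it had 2, 4, 5 and 1 peaks against input and 0 in each of the 4 IgG lists. Of the 156 loci with a peak in all 4 input lists, 2, Serpinc1 included, had a peak in at most 1 IgG list. The gene (ENSMUSG00000026715) lies on chromosome 1 from 160978583 to 161002543, on the plus strand. Its strongest fold against input was 1.69 after Aroclor1260, 1.75 after PCB126, 3.00 after the combination and 1.92 in the control. These values were low, and exceeded 18.9%, 5.97%, 30.1% and 13.4% of the other loci. The single control peak ran from 161002465 to 161002565, across the 3′ end of the RefSeq span. The combination had its strongest peak at the same place, from 161002415 to 161002565, and Aroclor1260 had one from 161002515 to 161002615. PCB126 had none there. Its last peak began further on, at 161003015, beyond the RefSeq span and still carried the identifier of the gene. Exonic bases covered were 352, 803, 1205 and 101, and no base was within a peak in all 4 input lists. The control list against IgG held 1 further peak inside the span, of 99 bp with a fold of 2.00, from 160985953 to 160986051, under another identifier of the same strand. Counted by the gene's own identifier alone, Serpinc1 had a peak in no IgG list and was lost in none. Counted by span alone, its control peak against input fell away, and it became gained in all 3 exposures.

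Over the 6 genes together, peaks covered 2584 exonic bases after Aroclor1260, 5621 after PCB126, 7615 after the combination and 3180 in the control against input. These were 1.69%, 0.771%, 1.10% and 1.59% of all exonic bases in the lists, so the genes took a smaller share of the longer lists. All 3180 control bases were covered after the combination, 2880 after PCB126 and 2184 after Aroclor1260. Against IgG the covered bases numbered 4072, 4921, 5917 and 4419, and 3673, 3826 and 3924 of the control bases were covered in the 3 exposures. The combination list had the most bases with both references, and Aroclor1260 the fewest. Of the combination bases, 1444 against input and 1296 against IgG were from F9, which had none in the other treatments. Without F9 the combination still had the most against input, but fewer than PCB126 against IgG.

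**Figure D4:**
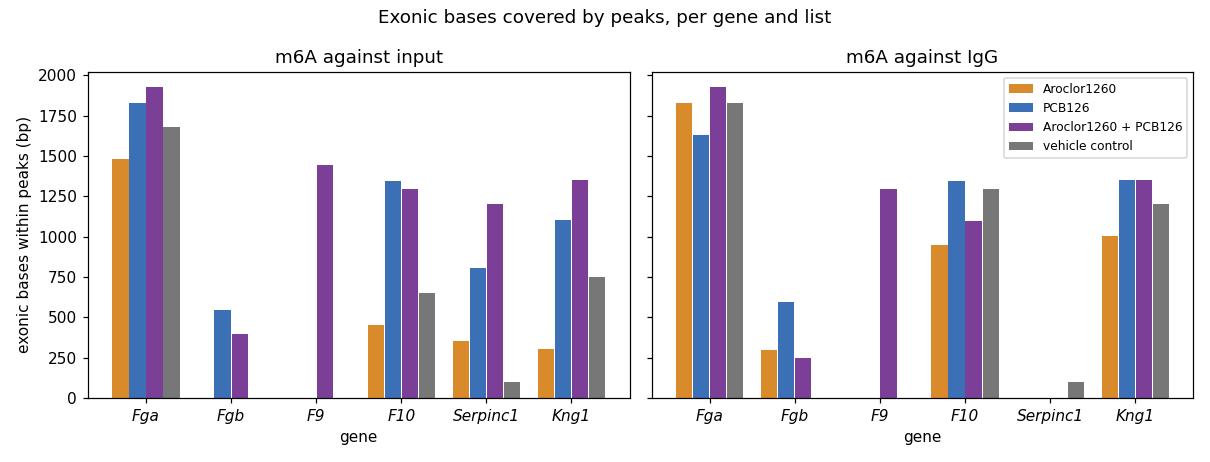
Exonic bases (bp) within peaks for each of the 6 genes, with 1 bar per treatment, against input on the left and against IgG on the right. Fga has between 1482 and 1925 covered bases in every list. F10 and Kng1 have fewer after Aroclor1260 and in the control than after PCB126 and the combination against input, and the bars are closer together against IgG.

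The 8 control peaks at the genes against input were all overlapped by a combination peak, 7 of them by a PCB126 peak and 6 by an Aroclor1260 peak, with an overlap of at least 1 bp on the same strand. Among all control peaks these shares were 87.4%, 88.2% and 50%. In the opposite direction, 7 of 8 Aroclor1260 peaks, 5 of 13 PCB126 peaks and 5 of 17 combination peaks at the genes overlapped a control peak, and the shares among all peaks were 63.6%, 20.7% and 20.45%. Peaks at these genes crossed exon junctions more often than peaks at large. More than 1 block was found in 6 of 8, 10 of 13, 9 of 17 and 7 of 8 peaks, against 19.4%, 26.5%, 27.5% and 17.9% of all peaks in the input lists, a difference given as a description. The median fold of peaks at the genes against input was 1.61, 1.71, 2.46 and 1.75, beside 2.14, 2.45, 2.40 and 2.32 for all peaks. Against IgG it was 3.25, 3.5, 3.285 and 2.11, beside 2.615, 3.30, 3.20 and 2.70 for all peaks. The genes thus had the lower median in 3 of 4 input lists and the higher one in 3 of 4 IgG lists.

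The wider clotting lists held 39 further genes of the fibrinogen, vitamin K, procoagulant, contact, anticoagulant and fibrinolytic groups. Of these, 1, 4, 5 and 1 had a peak against input and 6, 6, 6 and 5 against IgG, 7 genes in all. Of the 1419 loci, 16.1%, 48.5%, 50.6% and 18.0% had one against input and 42.4%, 77.4%, 70.0% and 42.1% against IgG. The higher counts after PCB126 and the combination against input were thus seen over all loci too. Every one of those loci had a peak somewhere, unlike most of the 39 genes, so the levels are not comparable. F7, which starts the extrinsic branch and ends 1498 bp before F10, had folds of 3.82 after PCB126, 3.21 after the combination and 1.93 in the control against input, and no peak after Aroclor1260. Against IgG its folds were 3.60, 6.20 and 3.55 in the exposures, with no control peak. Proz, the gene of protein Z, begins 3907 bp beyond F10 and had 5 peaks up to 4.2 after PCB126 and 5 up to 4.52 after the combination against input, and none in the other treatments. Its strongest folds against IgG were 8.0, 11.4, 7.0 and 3.48.

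F5, whose product is the cofactor of factor Xa, had strongest folds of 2.22, 4.29 and 3.87 in the exposures against input and no control peak, and of 4.33, 7.16, 4.31 and 2.96 against IgG. Hrg, which encodes histidine-rich glycoprotein, was found against input after the combination alone, with a fold of 4.64, and in all 4 IgG lists. Mug1, a proteinase inhibitor gene with close relatives, had 1.82 after PCB126 and 3.21 after the combination against input, and no control peak with either reference. Plg, the gene of plasminogen, had peaks against IgG only, with folds of 2.02 after Aroclor1260 and 1.65 in the control. The 3 genes of the vitamin K cycle, which recycle and use the vitamin for factors such as F9 and F10, had no peak in any list. By strand, 10 of the 22 clotting genes recorded on the plus strand had a peak in any list, and 1 of the 11 on the minus strand, which was Fgb.

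**Figure D5:**
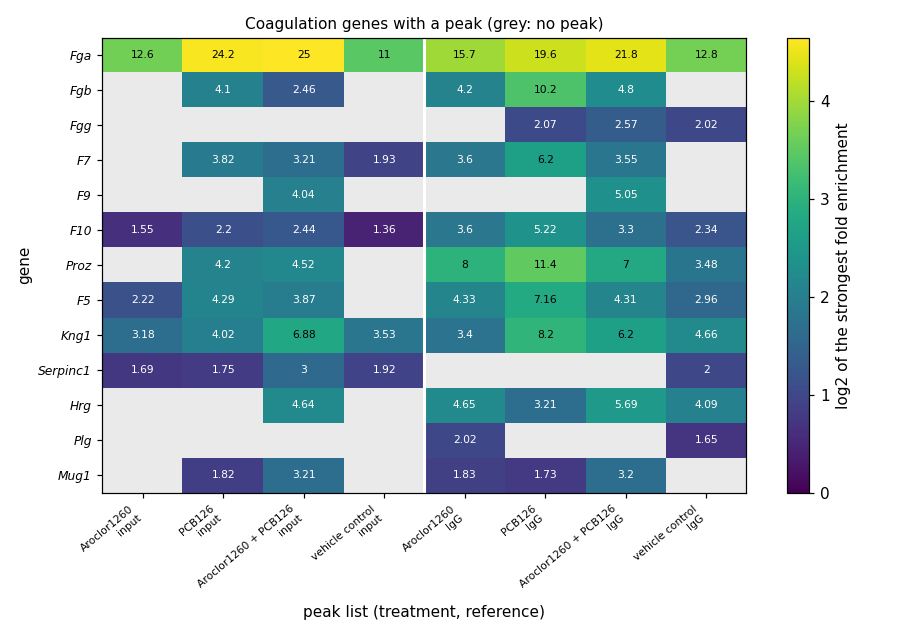
Strongest fold enrichment of the 13 clotting genes that had a peak somewhere in the 8 lists, printed in each cell and coloured by its log2, with grey for no peak. Columns are the treatments against input on the left and against IgG on the right. The Serpinc1 cell of the control against IgG and 1 of the peaks behind the Fgg control cell belong to other identifiers at those places.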

How the data were processed

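The authors' processing used build mm10, BWA 0.7.17, FastQC 0.10.1, bcl2fastq 2.20.0.422 and Trimmomatic, which the submitters' processing notes name without order or role. The authors deposited 8 peak lists whose titles name MeTPeak; its version, settings and annotation are not given here. Per the file headers, each peak had a fold enrichment (a linear ratio), a p-value (also as log10) and a log10 false discovery rate, of at most 0.0490.

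Lists were read with Python 3.11.15 and pandas 2.3.3. Identifiers took the symbol of the RefSeq gene (GRCm38.p6) that held at least 80% of their exonic peak bases, which named 1398 of 1512, and identifiers of 1 symbol formed a locus. Coordinates are counted from 1. Naming and overlap were tested on simulated peaks. Alternatives were the IgG reference, a false discovery rate of at most 0.01, a fold of at least 2, lists of equal length (506 peaks against input), other assignment of peaks to genes, and reciprocal overlap of 50%. IgG with assignment by identifier alone was added after the data were seen. All 6 genes are named, and from the clotting lists the genes with a peak. Kng2, the marker genes and the genes of the closing observations were named after their values were seen. The members and lists were chosen with earlier results of these data known. No genome sequence was used, so no sequence of a peak is shown.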

Additional observations from a re-analysis of the deposited data

How the results depend on the processing

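Counts below are in the order Aroclor1260, PCB126, combination and control where 4 are given. With a fold of at least 2, 2 genes had a peak after Aroclor1260 and 2 in the control, the peaks at the genes fell to 2, 5, 11 and 2, and 2 genes (F10, Fgb) were gained after PCB126 and 4 (all but Fga and Kng1) after the combination, where 30% and 31.4% of all loci were. No further clotting gene then had a control peak (0). With the strongest peaks by p-value in equal number, 3 genes had a peak in the PCB126 list and 2 in the combination list, with 6 and 3 peaks. Then 1 gene (Fgb) was gained after the combination (9.94% of loci), 2 were lost after PCB126 (9.23% of loci) and 3 after the combination (10.4% of loci), and the PCB126, combination and control lists held 1, 2 and 0 further clotting genes. The authors' p-values recur among peaks of a gene, so such a ranking moves whole genes. Against IgG, 1 gene (Fgb) was gained after Aroclor1260 (12.8% of loci), and 1 (Serpinc1) was lost in each exposure (12.5%, 4.79% and 5.29% of loci). There, 6 further clotting genes had a peak after Aroclor1260 and 5 in the control, and 5 control peaks were found after the combination. By identifier alone against IgG, 1 gene was gained after Aroclor1260 and 0 were lost. Loci at large join all identifiers of 1 symbol, so the IgG shares just given follow a slightly different rule. They still count Serpinc1 as lost. By span alone against input, 1 gene was gained after Aroclor1260 and 2 after PCB126. No share of all loci was computed by span, and with loci joined by symbol 4.58% and 31.8% were gained. With reciprocal overlap, 3 control peaks were found after PCB126 and 2 after the combination. Fgb was gained after PCB126 and after the combination under each of these settings except reciprocal overlap, for which gain was not computed, and a false discovery rate of at most 0.01 moved none of these counts by over 1.5 times. Where not stated above, the cause was not tested. No paired analysis was possible because each list stands for a whole treatment and holds no value for a replicate. For the same reason no replicate could be left out. Depth is unknown and limits every statement on absent peaks.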

Other observations

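Of 21 further acute phase genes, whose liver output changes in inflammation, 3, 3, 4 and 3 had a peak against input after Aroclor1260, PCB126, the combination and in the control, and 5, 5, 5 and 6 against IgG. Of all loci, each with a peak somewhere, 16.1%, 48.5%, 50.6% and 18.0% had one against input and 42.4%, 77.4%, 70.0% and 42.1% against IgG. Crp, the gene of C-reactive protein, was in all 8 lists with strongest folds of 8.96, 22.8, 15.8 and 10.3 against input and 13.7, 25.7, 14.1 and 18.1 against IgG. Hp, the haptoglobin gene, had 2.30, 6.79, 6.00 and 3.09 against input and 4.6, 5.55, 9.80 and 7.0 against IgG, so that PCB126 was above the control with input as reference and below it with IgG. Cp, the ceruloplasmin gene, had 3, 7, 8 and 3 peaks with strongest folds of 1.5, 2.78, 4.74 and 2.32 against input, and of 3.09, 3.55, 3.80 and 2.6 against IgG. Serpina3n had 3 peaks up to 5.11 after the combination against input and none in the other treatments, and it was in all 4 IgG lists.

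Among 9 genes of regulators of these proteins, 2, 4, 4 and 2 had a peak against input and 4 in each IgG list. The shares of all loci given with the acute phase genes apply here too. Hnf4a, a nuclear receptor that drives hepatocyte genes, had strongest folds of 5.68 after PCB126 and 4.90 after the combination against input and no peak after Aroclor1260 or in the control, while against IgG it had 4.77, 9.0, 7.10 and 3.52. Il6st, the signalling subunit of the interleukin-6 receptor, had 11 and 8.50 in the same lists, and against IgG 5.8, 20.9, 10.3 and 9.20. The absence of both genes from the other 2 input lists therefore depended on the reference. Cebpa had 2.54, 9.60, 12.3 and 5.08 against input and 7.17, 18.2, 15.4 and 10.2 against IgG. Cebpb, a transcription factor of the acute phase response, had 2.64, 26.8, 3.15 and 13.2 against input and 25.3, 35.3, 5.97 and 9.31 against IgG, so that its order among treatments changed with the reference.

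The p-value of a peak was often not its own. Of identifiers with several peaks in a list, between 74.4% and 86.2% had at least 2 peaks with the same p-value. All F10 peaks of a list had 1 p-value, 4e-11 in the control against input, where the strongest fold was 1.36, and 4e-09 after the combination, where it was 2.44. Against IgG, the lowest p-value, 1.3e-12 after PCB126, went with the highest F10 fold, 5.22.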
